A study of Mus musculus with 20 samples.

Results

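ATP-binding cassette (ABC) transporters were followed as a gene family through mouse liver and liver tumours. Members were the genes whose mouse symbol begins with Abc, followed by a subfamily letter from a to g and a number, and that had at least 10 counts in at least 4 of the 20 files; 1 further gene of that symbol pattern is not analysed here. Of 49 such symbols among 55359 gene identifiers, 39 met the count rule: 9 of 16 in subfamily A, 8 of 9 in B, 9 of 10 in C, 4 of 4 in D, 1 of 1 in E, 3 of 3 in F and 5 of 6 in G. The 10 that did not were Abca4, Abca12, Abca13, Abca14, Abca15, Abca16, Abca17, Abcb5, Abcc8 and Abcg4. All 39 members also passed the filter on low counts used for testing, and 37 of them had at least 10 counts in all 20 files. Abcb1b did so in 19 files and Abcc12 in 11, all of them from high-fat mice.

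The study asked how treadmill exercise acts on liver tumour promotion, and its 20 libraries form 5 groups of 4, which are called here exercised tumours, non-exercised tumours, exercised non-tumour liver and non-exercised non-tumour liver (all on a high-fat diet of 60 kcal% fat) and normal-diet liver (12 kcal% fat, non-exercised). The diets also differed in protein, at 20 kcal% in the high-fat and 29 kcal% in the normal diet, so fat and protein cannot be told apart. All mice were wild-type males of the strain labelled C56BL/6, 35 weeks old. Every group, the normal-diet mice included, had been treated on postnatal day 4 to 5 with the carcinogen DMBA (7,12-dimethylbenz(a)anthracene; 50 µL at 0.5% in acetone on the back), so no group is free of carcinogen. Obese mice weighed over 45 g. Exercised mice entered the running arm at 20 weeks of age, started at 10 m/min, and, once 5 training weeks had passed, were run daily for 20 min at 18 m/min, 5 times weekly, through the last 10 weeks. Both high-fat arms were killed within 2 hours of the last run, so the exercised groups carry a recent bout together with the training. The labels number the mice of a group 1 to 4; libraries of both tissues with the same arm and number were read as pieces of 1 mouse.

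ABC transporters are membrane proteins that use ATP to move lipids, sterols, bile constituents, conjugated metabolites, haem precursors, peptides and drugs across membranes. In the hepatocyte they stand on the canalicular side, where they fill the bile, on the sinusoidal side, where they return conjugates to the blood, and on peroxisomes, mitochondria and lysosomes. The E and F subfamilies carry the same ATP-binding cassettes with no membrane part and work on ribosomes.

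Total counts ran between 16471378 and 20271948 per library. Albumin took 9.05 to 15.9% of counts in the 8 tumour libraries and 4.06 to 7.36% in the other 12, and mitochondrial transcripts took 2.56 to 4.5% and 4.54 to 5.99%. The summed level of 8 macrophage markers had a median of 83.6 RPKM in exercised tumours, 72.7 in non-exercised tumours, 182 in exercised non-tumour liver, 185 in non-exercised non-tumour liver and 92.0 in normal-diet liver, and library 3 of the non-exercised tumours reached 217. With diet 5 of the 8 macrophage, 3 of 8 stellate and fibroblast and 3 of 4 tested erythroid markers rose, and 2 of 7 endothelial, 2 of 6 hepatocyte and 1 of 6 T and B cell markers fell. In tumours of each arm 3 macrophage and 1 erythroid marker fell, 2 stellate and fibroblast markers rose, and 2 of the hepatocyte markers (Alb and Trf) rose while 1 (Cps1) fell; endothelial markers that rose numbered 3 in exercised mice and 2 in non-exercised ones, and 1 of 5 cholangiocyte markers rose in each arm (1 fell in non-exercised mice). Of all genes tested, 14% rose and 11.9% fell with diet. In tumours 18.6% rose and 16% fell in exercised mice, and 18% rose and 17.8% fell in non-exercised mice. Lists with only 1 or 2 markers called therefore say little. No marker was at 0 in all 4 libraries of a group. RPKM here is the read count divided by the exon length and by the scaled library size. These are pieces of whole tissue, in which fewer cells of a type and less RNA per cell cannot be told apart.

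Levels of the members spanned nearly 3 orders of magnitude. By the mean of the 5 group means, 19 members stood at 10 RPKM or more, 13 between 1 and 10, and 7 below 1. Abcd3, the 70 kDa peroxisomal membrane protein, was the highest at 88.2 RPKM, followed by Abcc2, the canalicular exporter of conjugated organic anions, at 68.3 RPKM. Abca6 (40.3 RPKM), the sinusoidal conjugate exporter Abcc3 (39.3 RPKM), the biliary phospholipid floppase Abcb4 (38.4 RPKM), the sterol transporter pair Abcg5 (29.6 RPKM) and Abcg8 (24.0 RPKM), Abcc6 (24.3 RPKM), Abca1 (23.7 RPKM) and Abce1 (16.2 RPKM) complete the 10 highest. At the low end stood the drug and conjugate pump Abcc1 at 0.217 RPKM, Abcb1b at 0.182 RPKM and Abcc12 at 0.110 RPKM. The summed level of all 39 members had a median of 530 RPKM in exercised tumours, 499 in non-exercised tumours, 594 in exercised non-tumour liver, 573 in non-exercised non-tumour liver and 605 in normal-diet liver.

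**Figure D1:**
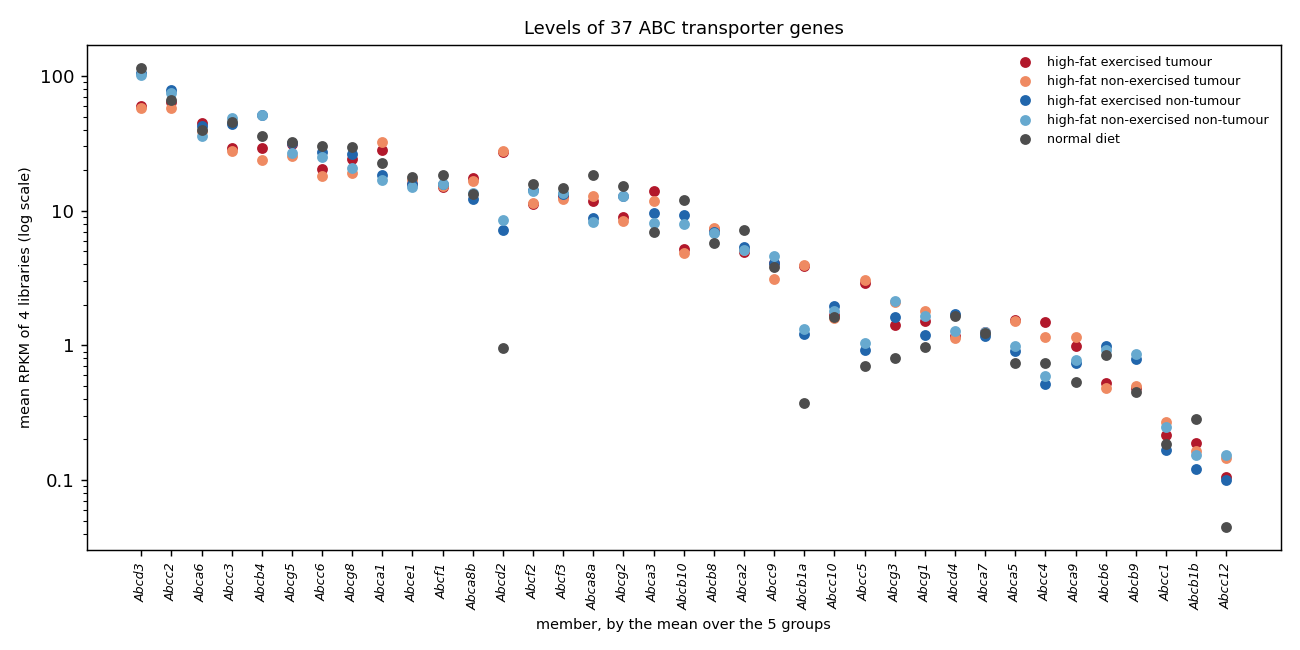
Mean level of 37 members in the 5 groups (RPKM, log axis, each point the mean of 4 libraries), ordered by the mean over the groups. Abcd3 leads at 88.2 RPKM and Abcc12 is lowest at 0.110 RPKM; the widest gaps between groups are those of Abcd2 and Abcb1a, whose normal-diet points lie far below the rest.

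A gene is said to have risen or fallen where its adjusted p was under 0.05 in edgeR's quasi-likelihood test, with Benjamini-Hochberg adjustment over the 14428 genes tested. Between high-fat and normal-diet liver (both non-exercised, the high-fat pieces without tumour), 9 members rose and 5 fell, or 35.9% of the 39, beside 25.9% of all genes tested. Abcc12, 1 of the 9 that rose, met the count rule only through high-fat files, so its rise is not independent of that rule. The median log2 fold change was 0.04 over the members and 0.01 over all genes. Between tumour and non-tumour liver, 9 members rose and 11 fell in exercised mice (51.3%, beside 34.6% of all genes), and 8 rose and 10 fell in non-exercised mice (46.2%, beside 35.8%). Median log2 fold changes in these tumour comparisons were -0.01 (exercised) and -0.04 (non-exercised) for the members, against 0.01 and -0.01 for all genes. In the exercise comparisons 0 members passed, beside 0.0139% of all genes in non-tumour liver and 0.0208% in tumours. The diet comparison and the tumour comparison of non-exercised mice share the non-exercised non-tumour libraries, so their results for 1 gene are not independent of each other.

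Counts by subfamily in tumours were as follows. In subfamily A 5 members rose in each arm and none fell. In subfamily B 1 rose and 4 fell in each arm. Of all genes tested, 18.6% rose and 16% fell in exercised mice, and 18% rose and 17.8% fell in non-exercised mice. In tumours of both arms 7 members rose (Abca1, Abca3, Abca5, Abca9, Abcb1a, Abcc5 and Abcd2), and those that fell in both included Abcb4, Abcb6, Abcb9, Abcb10, Abcc3, Abcc6, Abcd3, Abcf2 and Abcg2. No member moved in opposite directions between the arms, and 12 of 39 passed in no comparison. The counts over both arms and over all comparisons are not set beside the matching shares of all genes here, so they do not mark the members out.

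**Figure D2:**
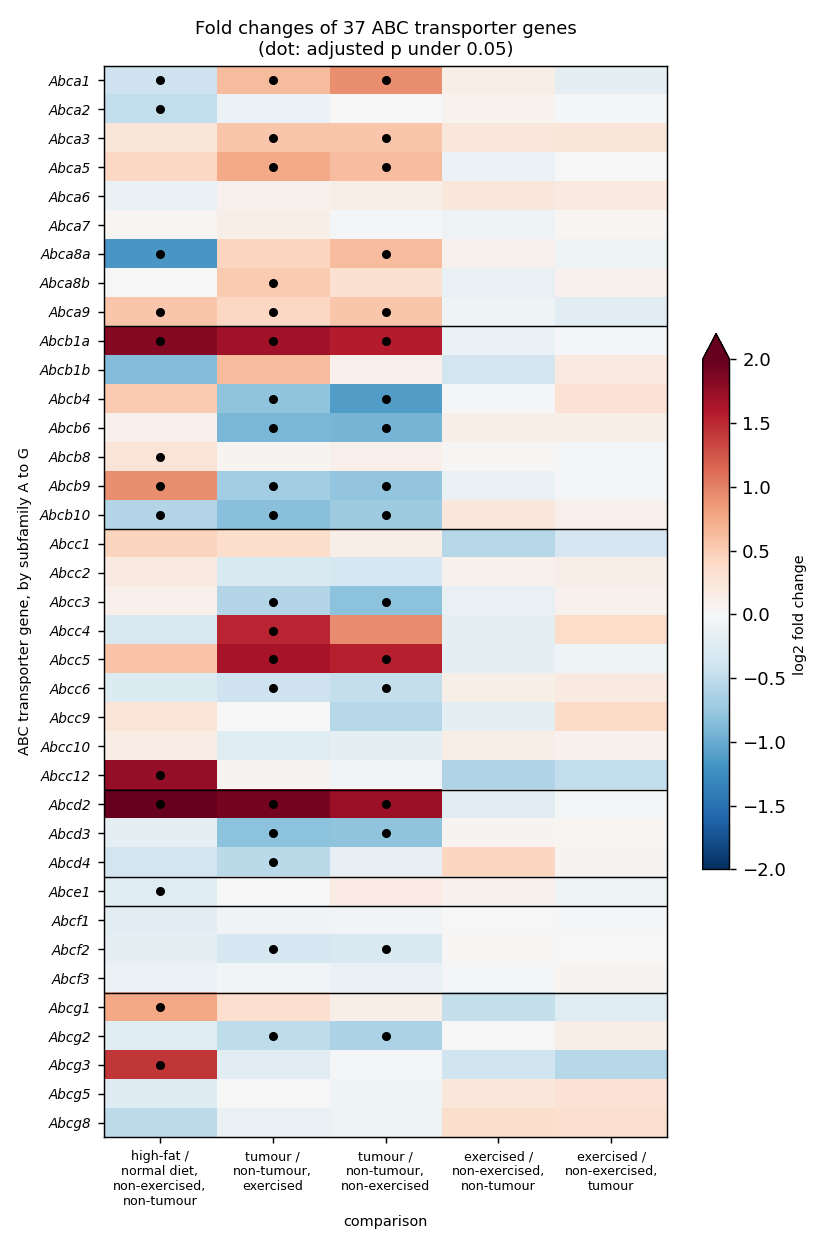
Log2 fold change (colour, red higher and blue lower in the group named above the slash) of 37 members, by subfamily, in 5 comparisons; a dot marks an adjusted p under 0.05. Abcd2 in the diet comparison, at 3.14, lies beyond the colour scale, dots fill 13 cells in the diet column, 19 in the tumour column of exercised mice and 17 in that of non-exercised mice, and there are 0 in the exercise columns.

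Subfamily D transporters such as Abcd2 and Abcd3 import fatty acyl-CoA into peroxisomes, where very-long-chain, branched and dicarboxylic acids and bile acid precursors are shortened, while Abcd4 instead serves lysosomal cobalamin. Abcd2 rose with the high-fat diet and again in tumours. Its level in libraries 1 to 4 was 32.8, 33.8, 18.7 and 23.6 RPKM in exercised tumours, 32.2, 32.5, 16.9 and 29.7 RPKM in non-exercised tumours, 3.08, 11.9, 5.99 and 7.95 RPKM in exercised non-tumour liver, 6.90, 10.1, 7.77 and 9.09 RPKM in non-exercised non-tumour liver, and 0.638, 1.48, 1.21 and 0.503 RPKM in normal-diet liver. All tumour libraries lay above all non-tumour libraries, and these above all normal-diet libraries. The log2 fold change was 3.14 ± 0.40 (SE) for diet, an 8.81-fold higher level in high-fat liver (adjusted p = 9.82e-05). In tumours it was 1.91 ± 0.36 in exercised mice (adjusted p = 0.00108) and 1.72 ± 0.36 in non-exercised mice (adjusted p = 0.00169).

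Abcd3 went the other way in tumours. It had 41.1, 57.4, 76.5 and 64.3 RPKM in exercised tumours and 42.5, 58.0, 67.3 and 64.5 RPKM in non-exercised tumours, against 111, 108, 97.3 and 107 RPKM in exercised and 99.5, 107, 93.4 and 107 RPKM in non-exercised non-tumour liver. No tumour library reached any non-tumour library, and the log2 fold changes were -0.82 ± 0.16 in exercised mice (adjusted p = 0.000945) and -0.81 ± 0.16 in non-exercised mice (adjusted p = 0.00084). Abcd3 in the diet comparison had a log2 fold change of -0.18 ± 0.16, which did not pass (adjusted p = 0.396).

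The balance of these peroxisomal genes differed between groups. Abcd2 made up a median of 32.0% of the summed RPKM of Abcd2 and Abcd3 in exercised tumours (range 19.6 to 44.4%), 33.7% in non-exercised tumours (20.1 to 43.1%), 6.37% in exercised non-tumour liver (2.69 to 9.97%), 7.75% in non-exercised non-tumour liver (6.49 to 8.66%) and 0.766% in normal-diet liver (0.425 to 1.35%). The sum itself had a median of 89.6 RPKM in exercised tumours, 87.4 in non-exercised tumours, 114 in exercised non-tumour liver, 111 in non-exercised non-tumour liver and 115 in normal-diet liver. Abcd4 had a mean of 1.18 ± 0.180 RPKM in exercised tumours and 1.14 ± 0.142 in non-exercised tumours, against 1.72 ± 0.166 in exercised and 1.27 ± 0.226 in non-exercised non-tumour liver (SD, n = 4 each). It fell in tumours of exercised mice (log2 fold change -0.55 ± 0.15, adjusted p = 0.0100), while the value in non-exercised mice was -0.16 ± 0.15 (adjusted p = 0.433). The difference between the arms did not pass (interaction -0.39 ± 0.21, adjusted p = 1).

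**Figure D3:**
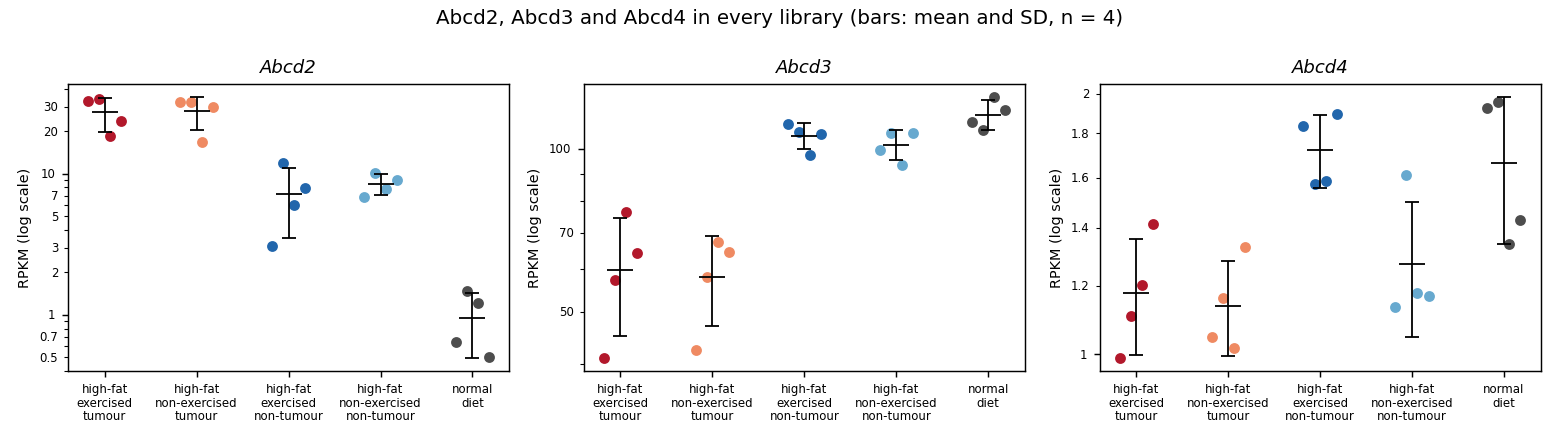
Level of Abcd2, Abcd3 and Abcd4 in every library (RPKM, log axes; points are libraries 1 to 4 of a group, bars the mean and SD of 4). Abcd2 sits between 16.9 and 33.8 RPKM in tumours and at most at 1.48 RPKM in normal-diet liver, while Abcd3 in tumours, at most 76.5 RPKM, stays below all other groups.

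The fall of Abcd3 in tumours stood beside a wider set of peroxisomal genes. Of 16 genes of peroxisomal β-oxidation and assembly, 13 fell in tumours of exercised mice and 15 in those of non-exercised mice, and none rose, beside 16% and 17.8% of all genes that fell; the median log2 fold changes were -0.83 and -0.94, against 0.01 and -0.01 over all genes. Acaa1a, a peroxisomal thiolase, fell by 1.12 ± 0.18 on the log2 scale in non-exercised mice (adjusted p = 0.00021), and the import receptor gene Pex5 fell by 0.74 ± 0.11 (adjusted p = 0.00017). With diet, 1 of the 16 fell, the peroxisomal carrier Slc25a17 (-0.42 ± 0.13, adjusted p = 0.028), and none rose. Of all genes, 11.9% fell and 14% rose with diet.

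In subfamily B, 3 neighbouring genes on chromosome 5 encode the classical multidrug resistance proteins. Abcb1a and Abcb1b are the mouse forms of P-glycoprotein, which expels drugs and other hydrophobic compounds, and Abcb4 moves phosphatidylcholine into bile. On GRCm39, all on the plus strand, Abcb1a lies at chr5:8710077-8798575, Abcb1b 49571 bases further at chr5:8848147-8916315 and Abcb4 another 27401 bases on at chr5:8943717-9009231. Abcb1a rose and Abcb4 fell in tumours. Abcb1a had 5.02, 4.98, 2.10 and 3.41 RPKM in exercised tumours, 4.62, 5.20, 2.36 and 3.58 RPKM in non-exercised tumours, 0.721, 2.23, 0.911 and 0.968 RPKM in exercised non-tumour liver, 1.04, 1.49, 1.17 and 1.60 RPKM in non-exercised non-tumour liver and 0.532, 0.159, 0.387 and 0.406 RPKM in normal-diet liver. In exercised mice the groups overlapped, through library 2 of the non-tumour liver, which at 2.23 RPKM stood above library 3 of the tumours. The log2 fold changes were 1.67 ± 0.37 in tumours of exercised mice (adjusted p = 0.00255), 1.57 ± 0.36 in tumours of non-exercised mice (adjusted p = 0.00325) and 1.84 ± 0.41 with diet (adjusted p = 0.00411).

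Abcb4 had 18.3, 23.9, 39 and 35.5 RPKM in exercised tumours and 15.3, 20.2, 32.7 and 26.9 RPKM in non-exercised tumours, against 46.6, 54.8, 54.6 and 48.7 RPKM in exercised and 54.7, 49.9, 48.9 and 53.6 RPKM in non-exercised non-tumour liver. All tumour libraries were below all non-tumour libraries, and libraries 1 and 2 were the lowest of the tumours in both arms. The log2 fold changes were -0.81 ± 0.22 in exercised mice (adjusted p = 0.00918) and -1.12 ± 0.22 in non-exercised mice (adjusted p = 0.001). With diet, the high-fat libraries all lay above the normal-diet ones, at 37.2, 44.0, 32.5 and 30.4 RPKM, but the log2 fold change of 0.52 ± 0.22 did not pass (adjusted p = 0.0871); a fit of the libraries of that comparison alone gave 0.54 (adjusted p = 0.00594). Abcb1b was at most at 0.313 RPKM in any library and passed in no comparison. Its diet value was -0.86 ± 0.44 (adjusted p = 0.151), with means of 0.154 ± 0.0668 RPKM in high-fat and 0.282 ± 0.0215 RPKM in normal-diet liver. The median ratio of Abcb4 to Abcb1a in RPKM was 7.60 in exercised tumours, 5.70 in non-exercised tumours, 55.1 in exercised non-tumour liver, 37.7 in non-exercised non-tumour liver and 79.5 in normal-diet liver.

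**Figure D4:**
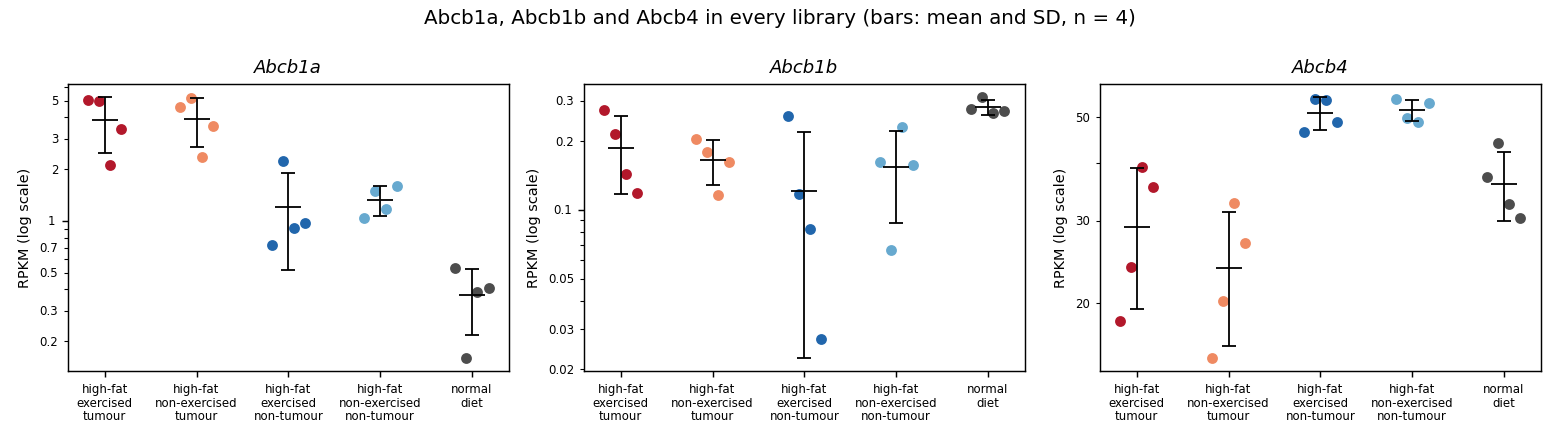
Level of the neighbouring genes Abcb1a, Abcb1b and Abcb4 in every library (RPKM, log axes; points are libraries 1 to 4, bars the mean and SD of 4). Abcb1a is highest in the tumour groups and lowest in normal-diet liver, Abcb4 is lowest in the tumour groups, and Abcb1b lies at 0.313 RPKM or less throughout.

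The 250 bases before the RefSeq starts of Abcb1b and Abcb4 are printed because these neighbours stand far apart in level (0.182 and 38.4 RPKM over the groups); they lie on the plus strand of GRCm38.p6, 5′ to 3′, at chr5:8797897-8798146 and chr5:8893471-8893720, and each start is also that of a GENCODE M21 transcript on the same build. For Abcb1a the RefSeq start lies 92986 bases before the GENCODE M21 start of the gene, so its window is not shown.
Abcb1b: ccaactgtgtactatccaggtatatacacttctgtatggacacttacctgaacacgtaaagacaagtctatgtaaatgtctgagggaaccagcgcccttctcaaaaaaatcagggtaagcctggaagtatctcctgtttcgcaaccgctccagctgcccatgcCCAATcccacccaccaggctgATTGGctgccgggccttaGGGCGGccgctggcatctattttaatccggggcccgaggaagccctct
Abcb4: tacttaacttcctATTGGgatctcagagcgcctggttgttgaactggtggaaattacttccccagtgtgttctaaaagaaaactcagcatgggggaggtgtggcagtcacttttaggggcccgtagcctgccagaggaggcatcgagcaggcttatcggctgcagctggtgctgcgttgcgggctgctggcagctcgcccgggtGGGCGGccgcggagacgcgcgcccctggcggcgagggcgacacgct
Capitals mark matches, on either strand, to 6 short motifs searched: TATAAA (the TATA motif), CCAAT (which on the other strand reads as ATTGG), then GGGCGG (the Sp1 motif), CACGTG (the E-box), AGGTCA (the nuclear receptor motif) and the antioxidant response core TGACNNNGC. Abcb1b held the CCAAT motif at 2 places, 87 and 66 bases before the start, and GGGCGG at 48, with 52.8% G and C. Abcb4 held the CCAAT motif at 237 and GGGCGG at 46 bases before the start, with 61.6% G and C. Among 32851 RefSeq promoters of that length, 33.8% held the motif CCAAT, 32.7% held GGGCGG, 14% held AGGTCA, 12.4% held TATAAA, 10.2% held TGACNNNGC and 6.02% held CACGTG. These matches describe the letters of the window and do not show that a factor binds.

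The other B members sit in mitochondria and lysosomes. Abcb10, a protein of the mitochondrial inner membrane linked to haem synthesis, averaged 5.18 ± 1.57 RPKM in exercised and 4.82 ± 1.0 in non-exercised tumours, against 9.25 ± 2.31 in exercised and 7.94 ± 0.236 in non-exercised non-tumour liver and 12.0 ± 2.57 in normal-diet liver (SD, n = 4 each). It fell in tumours by 0.83 ± 0.21 (exercised, adjusted p = 0.00654) and 0.72 ± 0.21 (non-exercised, adjusted p = 0.0142) on the log2 scale, and with diet by 0.59 ± 0.21 (adjusted p = 0.0454). The tumour call in non-exercised mice was lost without tumour library 1 (adjusted p = 0.0693), and the diet call without any library of the comparison but normal-diet library 2 (adjusted p 0.0675 to 0.136). Abcb6, a porphyrin transporter, fell in tumours by 0.91 ± 0.19 (exercised, adjusted p = 0.00178) and 0.93 ± 0.19 (non-exercised, adjusted p = 0.00136) on the log2 scale. All of its tumour libraries, at 0.341 to 0.659 RPKM, lay below its non-tumour libraries, at 0.692 to 1.22 RPKM. In the files' annotation 55.2% of the exon bases of Abcb6 are shared with Gm29253 on the same strand, where the counter by default gives reads to neither gene, so its level may be understated.

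Abcb8, of the mitochondrial inner membrane, rose with diet by a log2 fold change of 0.25 ± 0.07 (adjusted p = 0.0167) and did not pass in tumours; the diet call was lost without normal-diet library 2 (adjusted p = 0.0739) or 3 (adjusted p = 0.0579). Abcb9, a lysosomal peptide transporter, rose with diet, to a mean of 0.862 ± 0.112 RPKM against 0.454 ± 0.117 in normal-diet liver (log2 fold change 0.92 ± 0.25, adjusted p = 0.0113). In tumours it fell by 0.70 ± 0.25 (exercised, adjusted p = 0.0348) and 0.79 ± 0.24 (non-exercised, adjusted p = 0.0169). The exercised call was lost without any of 6 libraries, namely non-tumour 2, 3 and 4 and tumour 1, 2 and 4 (adjusted p 0.0537 to 0.0898), and the non-exercised call without non-tumour 3, tumour 1 or tumour 2 (0.0516 to 0.0734). Of 16 genes of mitochondrial haem and iron-sulphur synthesis, 11 fell in exercised tumours, 10 fell in non-exercised ones and none rose, with medians of -0.42 and -0.49, beside 16% and 17.8% of all genes that fell and medians of 0.01 and -0.01; Glrx5, which hands on iron-sulphur clusters, fell by 1.02 ± 0.13 (adjusted p = 6.2e-05) in non-exercised mice. With diet 2 of these 16 genes fell, a share near the 11.9% of all genes that did, and none rose. The 2 were Fech (-0.34 ± 0.08, adjusted p = 0.0046) and Alas1 (-1.39 ± 0.42, adjusted p = 0.022), the last and the rate-setting enzyme of haem synthesis.

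Among the conjugate and drug pumps of subfamilies C and G, Abcc3 and Abcg2 fell and Abcc5 rose in tumours of both arms, while Abcc2 did not pass. Abcc3 had 24.8, 29.5, 31.9 and 31.7 RPKM in exercised tumours and 22.1, 22.4, 34.8 and 31.5 RPKM in non-exercised tumours, against 35.7, 51.8, 43.3 and 46.9 RPKM in exercised and 50.9, 45.2, 44.0 and 56.4 RPKM in non-exercised non-tumour liver. The groups did not overlap in either arm, and the log2 fold changes were -0.59 ± 0.15 (exercised, adjusted p = 0.00599) and -0.83 ± 0.15 (non-exercised, adjusted p = 0.000525). Abcg2, the breast cancer resistance protein, which exports urate and many drugs, averaged 9.04 ± 1.55 RPKM in exercised and 8.33 ± 1.25 in non-exercised tumours, against 12.9 ± 1.72 in exercised and 12.9 ± 1.31 in non-exercised non-tumour liver (SD, n = 4 each). It fell by 0.51 ± 0.14 (adjusted p = 0.0105) and 0.63 ± 0.14 (adjusted p = 0.00255) on the log2 scale, again with no overlap.

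Abcc2 stood at 55.9 to 70.9 RPKM in exercised tumours and 43.2 to 69.0 RPKM in non-exercised tumours, against 65.4 to 89.1 RPKM in exercised and 66.5 to 85.7 RPKM in non-exercised non-tumour liver; normal-diet liver had 56.6 to 70.5 RPKM. Its groups overlapped in both arms, and neither -0.31 ± 0.14 (adjusted p = 0.0924) nor -0.35 ± 0.14 (adjusted p = 0.0562) passed; with the mouse as a block the value in non-exercised mice was -0.37 and passed (adjusted p = 0.048), as it did under DESeq2 (-0.33, adjusted p = 0.0432) and without tumour 4 (-0.42, adjusted p = 0.0393). The diet value was 0.17 ± 0.14, with a 95% interval of -0.12 to 0.47. Abcc6, a hepatocyte protein on which ATP release depends and whose loss causes pseudoxanthoma elasticum in humans, fell in tumours by 0.41 ± 0.15 (exercised, adjusted p = 0.0451) and 0.48 ± 0.15 (non-exercised, adjusted p = 0.0223). The exercised call was lost without any library but tumour 3 or 4 (adjusted p 0.0542 to 0.154), and the non-exercised call without non-tumour 2 or 4 or tumour 1 or 2 (0.0582 to 0.113).

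Abcc5, an exporter of cyclic nucleotides and other organic anions, had 4.45, 3.37, 1.58 and 2.16 RPKM in exercised tumours and 4.87, 2.33, 2.57 and 2.55 RPKM in non-exercised tumours, against 0.757, 1.03, 0.996 and 0.913 RPKM in exercised and 0.898, 0.747, 1.19 and 1.36 RPKM in non-exercised non-tumour liver. All tumour libraries were higher, library 1 the highest in both arms. The log2 fold changes were 1.64 ± 0.29 (exercised, adjusted p = 0.000584) and 1.55 ± 0.28 (non-exercised, adjusted p = 0.000616). Abcc4, a sinusoidal pump of conjugates, bile acids and cyclic nucleotides, had 1.38, 1.56, 0.384 and 2.65 RPKM in exercised tumours and 1.51, 1.51, 0.815 and 0.769 RPKM in non-exercised tumours, against 0.402 to 0.624 RPKM in exercised and 0.536 to 0.674 RPKM in non-exercised non-tumour liver. It rose in exercised mice (log2 fold change 1.52 ± 0.38, adjusted p = 0.00545), with tumour library 3 below all 4 non-tumour libraries and the other 3 tumours above them. In non-exercised mice the value was 0.95 ± 0.37 with no overlap (adjusted p = 0.0541), and it passed under DESeq2, RLE or upper-quartile scaling, a fit of the compared groups alone, and without tumour 3 or 4 (0.0218 to 0.0496). The difference between arms did not pass (interaction 0.56 ± 0.53, adjusted p = 1).

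Abcc1, a pump of glutathione conjugates, Abcc10, and Abcc9, a sulphonylurea receptor subunit of potassium channels, passed in no comparison. For Abcc9 in tumours of non-exercised mice the value was -0.57 ± 0.27 (adjusted p = 0.11); it passed with the mouse as a block (-0.67, adjusted p = 0.0233) and without tumour library 3 (-0.89, adjusted p = 0.0107). Abcc12 rose with diet (log2 fold change 1.76 ± 0.52, adjusted p = 0.0187), to 0.126, 0.0644, 0.246 and 0.175 RPKM in high-fat liver against 0.0526, 0.0262, 0.0517 and 0.0478 RPKM in normal-diet liver. At such levels the counts are few, and the call was lost without high-fat library 3 (adjusted p = 0.0719) or normal-diet library 2 (adjusted p = 0.0573).

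**Figure D5:**
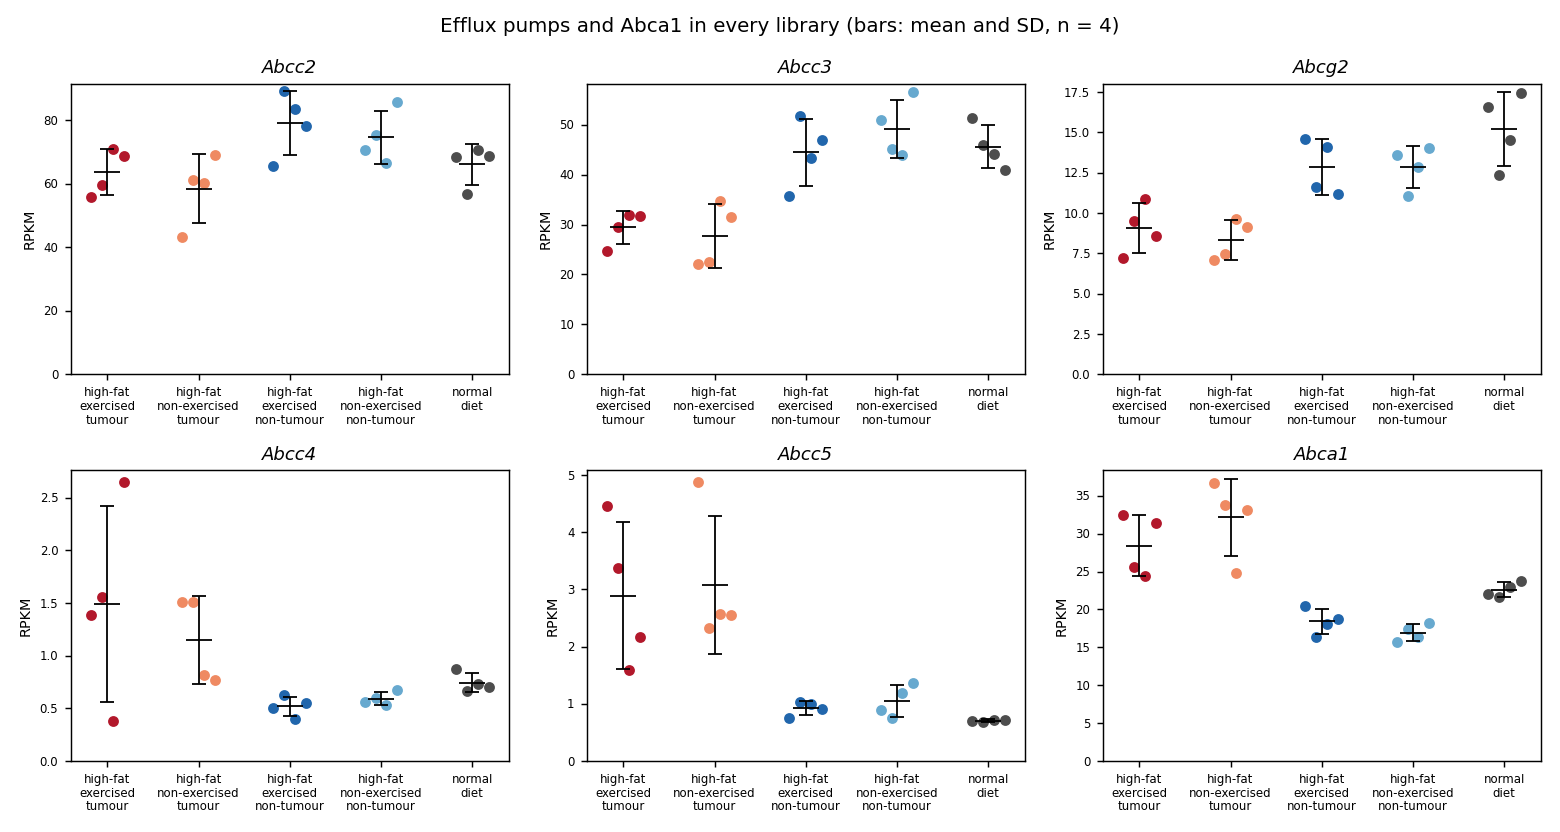
Level of Abcc2, Abcc3, Abcg2, Abcc4, Abcc5 and Abca1 in every library (RPKM, axes from 0; points are libraries 1 to 4, bars the mean and SD of 4). Tumour points of Abcc3 and Abcg2 lie below the non-tumour points and those of Abcc5 and Abca1 above them; Abcc2 overlaps, and 1 exercised tumour of Abcc4 lies at 0.384 RPKM.

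Other transport genes of the hepatocyte differed from list to list; of all genes tested 18.6% rose and 16% fell in tumours of exercised mice, 18% rose and 17.8% fell in those of non-exercised mice, and 14% rose and 11.9% fell with diet. Of 10 solute carriers of hepatocyte uptake and efflux, 6 fell and 1 rose in tumours of each arm, with medians of -1.20 (exercised) and -1.12 (non-exercised), against 0.01 and -0.01 over all genes. The bile acid importer Slc10a1 fell by 1.61 ± 0.46 (adjusted p = 0.012) on the log2 scale in non-exercised mice, and the prostaglandin carrier Slco2a1 rose by 1.54 ± 0.30 (adjusted p = 0.0011) there. Of 12 regulators of transporter genes, 5 fell in tumours of each arm and none rose: the receptor genes Nr1i2 (PXR), Nr1i3 (CAR), Nr1h4 (FXR), their partner Rxra, and Nr0b2. Nr1i3 fell by 1.66 ± 0.55 (adjusted p = 0.027) in exercised and fell by 1.85 ± 0.55 (adjusted p = 0.015) in non-exercised mice. With diet Nfe2l2, the gene of the oxidative stress factor NRF2, rose by 1.14 ± 0.15 (adjusted p = 9.8e-05), and Hnf4a fell by 0.65 ± 0.11 (adjusted p = 0.00078) and Rxra by 0.44 ± 0.11 (adjusted p = 0.009). Of 8 partners in the canalicular membrane, 3 rose in tumours of exercised and 2 in those of non-exercised mice and none fell; the copper pump Atp7b and the phospholipid flippase Atp8b1 rose in both.

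Subfamily A members move phospholipids and sterols. Abca1, which loads cellular cholesterol and phospholipid onto apolipoprotein A-I, had 32.4, 25.6, 24.4 and 31.4 RPKM in exercised tumours, 36.7, 33.8, 24.8 and 33.2 RPKM in non-exercised tumours, 20.5, 16.4, 18.1 and 18.7 RPKM in exercised non-tumour liver, 15.7, 17.4, 16.3 and 18.2 RPKM in non-exercised non-tumour liver and 22.1, 21.6, 22.9 and 23.8 RPKM in normal-diet liver. Every tumour library was above every non-tumour one, and every high-fat non-tumour library below every normal-diet one. The log2 fold changes were 0.63 ± 0.12 in tumours of exercised mice (adjusted p = 0.000897), 0.93 ± 0.12 in tumours of non-exercised mice (adjusted p = 7.4e-05) and -0.42 ± 0.12 with diet (adjusted p = 0.0152). The fold change of 1.90 in non-exercised tumours was the one with the smallest p among all members in that comparison.

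Abca5, Abca6, Abca8a, Abca8b and Abca9 form a cluster on chromosome 11, where the 5 genes lie on the minus strand with 4770 to 29788 bases between neighbours. They did not move as a block. With diet Abca8a fell, to 6.46, 10.4, 9.12 and 7.20 RPKM in high-fat liver against 20.9, 12.9, 21.5 and 18.9 RPKM in normal-diet liver (log2 fold change -1.16 ± 0.22, adjusted p = 0.00131), and Abca9 rose, to 0.732, 0.685, 0.802 and 0.920 RPKM against 0.515, 0.513, 0.577 and 0.537 RPKM (0.55 ± 0.12, adjusted p = 0.00333). Neither overlapped. Abca6, between Abca9 and Abca5 and the highest of the cluster, was at 36.1 ± 6.77 RPKM in high-fat and 39.5 ± 0.988 RPKM in normal-diet liver (SD, n = 4 each) and passed in no comparison.

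In tumours Abca9 rose in both arms, by log2 fold changes of 0.41 ± 0.12 (exercised, adjusted p = 0.0122; 0.0518 to 0.0664 with no filter on low counts or with only the compared groups in the fit) and 0.56 ± 0.12 (non-exercised, adjusted p = 0.00148). Abca5, a lysosomal transporter, rose by 0.76 ± 0.23 (exercised, adjusted p = 0.0153; 0.0540 to 0.0548 without non-tumour 1 or tumour 2) and by 0.62 ± 0.22 (non-exercised, adjusted p = 0.0378). The non-exercised call of Abca5 was lost with the mouse as a block (0.63, adjusted p = 0.0573) and without non-tumour 1, 2 or 3 or tumour 1 or 2 (0.0523 to 0.138). Abca8b rose in exercised mice (0.53 ± 0.16, adjusted p = 0.0142; 0.0528 to 0.0742 without non-tumour 1 or tumour 4), against 0.30 ± 0.16 in non-exercised mice (adjusted p = 0.135), where it passed in a fit of the compared groups alone (0.30, adjusted p = 0.0236). Abca8a rose in non-exercised mice (0.63 ± 0.22, adjusted p = 0.03; 0.0765 to 0.132 without non-tumour 1 or 4 or tumour 2), against 0.44 ± 0.22 in exercised mice (adjusted p = 0.125), where it passed with the mouse as a block (0.47, adjusted p = 0.0352) and without non-tumour 1 (0.66, adjusted p = 0.0277). Neither gene passed the test of a difference between arms.

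Abca3, which fills the lamellar bodies of lung surfactant cells with phospholipid, rose in tumours of both arms by 0.55 ± 0.17, with adjusted p = 0.0197 in exercised and 0.019 in non-exercised mice. Its groups overlapped in both arms, and the calls were lost without non-tumour 1 or 3 or tumour 2 (exercised, adjusted p 0.0574 to 0.0834) and without non-tumour 1 or 3 or tumour 1 (non-exercised, 0.0541 to 0.0753). Abca2, an endosomal and lysosomal lipid transporter, fell with diet, by 0.49 ± 0.18 (adjusted p = 0.0499), with overlapping groups because normal-diet library 2 stood at 4.67 RPKM beside 7.88, 8.43 and 7.92 RPKM in the others. This call was lost without any library but normal-diet 2 or high-fat 2 (adjusted p 0.0592 to 0.149). Abca7 was at 0.900 to 1.47 RPKM in all 20 libraries and passed nowhere.

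Abcg5 and Abcg8 encode the partners of a single transporter that sends cholesterol and plant sterols into bile. On GRCm39 they overlap on chromosome 17, with Abcg5 on the minus strand at chr17:84965662-84990439 and Abcg8 on the plus strand at chr17:84983730-85007761. Neither passed in any comparison. Abcg5 averaged 31.3 ± 2.07 RPKM in exercised tumours, 25.5 ± 5.12 in non-exercised tumours, 31.6 ± 7.08 in exercised non-tumour liver, 27.0 ± 5.16 in non-exercised non-tumour liver and 32.4 ± 9.86 in normal-diet liver. Abcg8 averaged 24.1 ± 4.02, 19.2 ± 4.68, 26.3 ± 7.55, 20.6 ± 4.22 and 29.7 ± 9.92 RPKM in the same groups (SD, n = 4 each). The diet value of Abcg8 was -0.53 ± 0.24 (adjusted p = 0.12), and without normal-diet library 2, the lowest of its group at 16.9 RPKM, it was -0.73 and passed (adjusted p = 0.0285). In tumours the 95% interval of Abcg5 was -0.45 to 0.43 in exercised and -0.52 to 0.36 in non-exercised mice.

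Over the 20 libraries, the log2 levels of Abcg5 and Abcg8 had a Pearson correlation of 0.938 and a Spearman correlation of 0.928, and the deviations from the group means correlated at 0.954; libraries are shared by both measures, and 82 exon bases overlap on opposite strands, which the stranded counting tells apart. By comparison, log2 Abcb1a and Abcb4 had a Pearson correlation of -0.568 over the same libraries. RefSeq gives 1 start for Abcg5 and 2 for Abcg8, each also the start of a GENCODE M21 transcript (GRCm38.p6). The 250 bases before each are shown because the Abcg5 window shares 109 bases with that of the inner Abcg8 start and none with that of the outer one, which lies 6819 bases further out and is where the gene begins in GENCODE M21. They stand at chr17:84683012-84683261 on the minus strand (Abcg5), chr17:84682871-84683120 (Abcg8, inner) and chr17:84676052-84676301 (Abcg8, outer) on the plus strand, each printed 5′ to 3′ on its own strand.
Abcg5: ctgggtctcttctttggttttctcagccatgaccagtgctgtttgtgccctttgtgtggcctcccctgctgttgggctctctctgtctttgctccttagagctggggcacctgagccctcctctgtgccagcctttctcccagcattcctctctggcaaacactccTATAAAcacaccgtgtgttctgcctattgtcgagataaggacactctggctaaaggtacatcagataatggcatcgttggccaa
Abcg8 inner: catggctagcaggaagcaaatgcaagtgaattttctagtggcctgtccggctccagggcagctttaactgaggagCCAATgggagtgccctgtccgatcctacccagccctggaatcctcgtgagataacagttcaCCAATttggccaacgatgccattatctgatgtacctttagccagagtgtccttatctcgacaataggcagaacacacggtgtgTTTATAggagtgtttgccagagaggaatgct
Abcg8 outer: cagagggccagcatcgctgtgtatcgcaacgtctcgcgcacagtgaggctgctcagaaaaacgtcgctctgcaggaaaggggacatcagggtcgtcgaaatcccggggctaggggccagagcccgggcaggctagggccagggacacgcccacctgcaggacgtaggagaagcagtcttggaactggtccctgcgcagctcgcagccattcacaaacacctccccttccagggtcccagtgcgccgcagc
Capitals mark the same motifs as above. The TATAAA match of Abcg5, 84 bases before its start, also shows as TTTATA in the inner Abcg8 window, 31 bases before that start, and that window held the CCAAT motif 175 and 114 bases before its start. None of the 6 motifs was found in the outer Abcg8 window, with 64.0% G and C, and no AGGTCA in any of the windows.

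Abcg1, which moves cholesterol to high-density lipoprotein and is prominent in macrophages, rose with diet, to 1.68, 1.25, 1.91 and 1.82 RPKM in high-fat liver against 0.895, 1.18, 0.864 and 0.976 RPKM in normal-diet liver (log2 fold change 0.77 ± 0.20, adjusted p = 0.00956). Abcg3, a rodent relative of Abcg2, rose as well, to 1.83, 1.13, 2.80 and 2.82 RPKM against 0.608, 0.950, 0.646 and 1.0 RPKM (1.42 ± 0.35, adjusted p = 0.00705). Neither overlapped. Of 8 macrophage markers 5 rose in the same comparison and none fell, beside 14% and 11.9% of all genes. Those that rose included Gpnmb (5.96 ± 1.02, adjusted p = 0.00082) and Trem2 (3.24 ± 0.61, adjusted p = 0.0014). Gpnmb averaged under 0.1 RPKM in normal-diet liver, so the size of its change rests on a level near the floor. The summed level of the 8 markers was 152 to 187 RPKM in high-fat and 81.0 to 112 RPKM in normal-diet liver. The part of macrophages in the rise of Abcg1 and Abcg3 was not tested. In non-exercised tumours, library 3, the one with the macrophage sum of 217 RPKM, also held the highest Abcg1 (2.90 RPKM, against 1.31 to 1.59 in the others), the highest Abcg3 (3.86 RPKM) and the highest Abcc1 (0.437 RPKM). It differed in other ways too, with the lowest albumin share (9.05%) and Abcd2 (16.9 RPKM) and the highest Abcb4 (32.7 RPKM) and Abcd3 (67.3 RPKM) of its group. These lay toward non-tumour liver, while its Abcc5 (2.57 RPKM) was not the lowest. Library 3 of the exercised tumours likewise had the lowest albumin share (10.6%) and Abcd2 (18.7 RPKM) of its group. It also had the highest Abcb4 (39.0 RPKM) and Abcd3 (76.5 RPKM) and the lowest Abcc5 (1.58 RPKM) there. What sets these libraries apart was not tested. The tumour value of Abcg1 in non-exercised mice was 0.11 ± 0.19 (adjusted p = 0.693) with tumour library 3 of that arm and -0.22 without it.

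Among 18 further genes of sterol export and its control by the LXR receptors, 5 rose and none fell with diet, led by the lipid transfer protein gene Pltp (1.17 ± 0.32, adjusted p = 0.014) in size. In tumours of exercised mice 6 rose and 3 fell, and in the other arm 5 rose and 4 fell. Of all genes tested 14% rose and 11.9% fell with diet, 18.6% and 16% in exercised and 18% and 17.8% in non-exercised tumours. Apoa1, the gene of the acceptor that Abca1 loads, rose by 1.62 ± 0.23 (exercised, adjusted p = 0.00014) and 1.64 ± 0.23 (non-exercised, adjusted p = 0.00012), and the high-density lipoprotein receptor gene Scarb1 rose by 0.92 ± 0.18 (adjusted p = 0.00093) and 0.95 ± 0.18 (adjusted p = 0.0006). The LXRα gene Nr1h3 fell, by 0.46 ± 0.09 (adjusted p = 0.00078) and 0.34 ± 0.09 (adjusted p = 0.0054) on the log2 scale.

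Of the E and F subfamilies, Abce1 and Abcf2 passed in some comparison. Abce1, which splits ribosomes after translation, fell with diet by 0.24 ± 0.07 on the log2 scale (adjusted p = 0.0252), to 15 ± 0.560 RPKM against 17.7 ± 0.709 RPKM in normal-diet liver, with no overlap; the call was lost without high-fat libraries 1, 3 or 4 or normal-diet 2 or 4 (adjusted p 0.0504 to 0.0816). Abcf2 fell in tumours by 0.33 ± 0.10 (exercised, adjusted p = 0.013; 0.0525 without tumour 1) and 0.30 ± 0.10 (non-exercised, adjusted p = 0.0199; 0.0528 to 0.0883 without non-tumour 1, 2 or 3 or tumour 1 or 4). Abcf1 and Abcf3 passed in no comparison. Of 3 ABC family genes with other names, 2 rose with diet, beside 14% of all genes. These were the peptide transporters Tap1 and Tap2, which supply antigen presentation, by 1.11 ± 0.13 (adjusted p = 3.7e-05) and 0.64 ± 0.14 (adjusted p = 0.0037). The chloride channel gene Cftr did not pass with diet. In tumours 2 of the 3 rose in exercised and 1 in non-exercised mice and none fell, beside 18.6% and 18% of all genes that rose.

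No member passed the threshold in either exercise comparison. In non-tumour liver edgeR called 0 members, beside 0.0139% of all genes, and DESeq2 0, beside 0.811%; 3 members were under an unadjusted p of 0.05 (Abcd4, Abcg1 and Abcc1), and 8.34% of all genes were. In tumours edgeR again called 0 members, beside 0.0208% of all genes, and DESeq2 0, beside 0.548%; 0 members were under an unadjusted p of 0.05, against 8.68% of all genes. Log2 fold changes of the members ran between -0.60 and 0.44 in non-tumour liver and between -0.57 and 0.38 in tumours. The 95% interval lay within 1 log2 unit of 0 for 34 members in non-tumour liver and 35 in tumours, so that changes of that size were not seen for most members, while smaller ones cannot be told from the spread between mice.

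The member nearest to the threshold was Abcd4, at 1.84, 1.57, 1.59 and 1.89 RPKM in exercised against 1.13, 1.61, 1.18 and 1.17 RPKM in non-exercised non-tumour liver (log2 fold change 0.44 ± 0.15, adjusted p = 0.39); the groups overlapped through library 2 of the non-exercised liver. Abcg1 had 1.21, 1.23, 1.22 and 1.13 RPKM in exercised against 1.68, 1.25, 1.91 and 1.82 RPKM in non-exercised non-tumour liver, without overlap (-0.48 ± 0.20, adjusted p = 0.536). The test of whether exercise acted differently in tumour and non-tumour pieces called 0 members in edgeR and 0 in DESeq2, with 0% of all genes in both, and 0 members were under an unadjusted p of 0.05 (2.03% of all genes). All further lists had 0 genes called in the exercise comparisons.

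Reads that match several places limit a few members. In transcripts of GENCODE M21, 15.4% of the 50-base stretches of Abcb1a and 9.70% of those of Abcb1b occur in another member, chiefly in each other, so counts of these genes are uncertain and may be too low; for Abcb4, Abca8a and Abca8b the share was 1.56%, 1.64% and 1.42%. The diet split of higher and lower calls moved with the scaling of library sizes: under upper-quartile scaling 9 members rose and 2 fell, beside 2513 and 1140 of all genes, against 2025 and 1715 with the scaling used above. With no filter on low counts 7 members rose and 2 fell with diet, beside 1500 and 1323 of the 29517 genes then tested.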

How the data were processed

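Polyadenylated RNA of frozen liver was sequenced in 20 stranded libraries, per the labels' protocols. The authors deposited unnormalized counts per gene from featureCounts 2.0.5 (exons, strand setting 2, GENCODE M27), per the file headers; Trim Galore 0.6.10, STAR 2.7.11a and GRCm39 are named in the submitters' processing notes. Of 55359 identifiers, 52083 had a symbol. No option for reads that match several places or genes is named there. All values here were computed from these counts. With edgeR's filterByExpr (count at least 10, total at least 15) 14428 genes stayed, and library sizes were scaled by TMM. The quasi-likelihood test of edgeR 4.0.16 (R 4.3.3, limma 3.58.1; two-sided) was fitted to 5 group means over 20 libraries with 15 residual degrees of freedom. The SE is the size of the log2 fold change over the root of F, and the 95% interval uses 15 degrees of freedom.

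Genes that could be given in every library were up to 10 called members with the smallest p in a comparison, plus Abca1, Abcg1, Abcg5, Abcg8, Abcb4, Abcc2, Abcc3, Abcb1a and Abcd2. Some, among them Abcb6, Abcc2, Abcg2, Abcg5 and Abcg8, are given in the text only as ranges, means or fold changes. Of each list, up to 4 called genes with the smallest p could be named. Members given beyond these (low, uncalled or differing between arms) and Pltp and Hnf4a were named after their values were seen. So were the regulators that fell in tumours, as far as they exceed that limit of 4. Another 2 members and 1 listed gene enter the counts and tests but are not reported one by one here. The members and lists were chosen with earlier results of these data known. Tumour and non-tumour pieces were paired by the mouse number in the titles. The correlation of their deviations from the group means was 0.0754 to 0.441 in exercised and -0.0835 to 0.213 in non-exercised mice. Between different mice that share only a number across the arms, it was 0.0281 to 0.573 for tumours and -0.392 to 0.0304 for non-tumour liver. These correlations therefore do not single out pieces of 1 mouse. Libraries of a group differed beyond sampling noise (chi-square per gene at least 9.93). That numbered mice are separate animals rests on the titles alone, so p-values cover only the spread among these samples, which may be technical. At 1 CPM the shallowest library holds 16.5 counts. Alternatives were DESeq2 1.42.0, RLE and upper-quartile scaling, other filters, a fit of the compared groups alone, the mouse as a block, and leaving out each library. The script was tested on simulated counts.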

Additional observations from a re-analysis of the deposited data

Results flagged for a closer look

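In 11 of 170 groups of 4 libraries, over 34 members, 1 library stood apart from the other 3 by more than chance gives in about 1 of 20 groups. In tumours these were Abca8a in exercised library 2 at 9.71 RPKM (nearest other 12.6), Abca8a in non-exercised library 2 at 17.6 RPKM (nearest other 11.5) and Abcc5 in non-exercised library 1 at 4.87 RPKM (nearest other 2.57). In exercised non-tumour liver they were Abcb1a (2.23 RPKM, nearest other 0.968) and Abcc1 (0.225 RPKM, nearest other 0.154) in library 2, Abca3 (11.5 RPKM, nearest other 9.18) and Abcf2 (13.4 RPKM, nearest other 14.4) in library 4, and Abcg8 in library 1 (37.5 RPKM, nearest other 24.0). Abcd4 stood at 1.61 RPKM in library 2 of the non-exercised non-tumour liver (nearest other 1.18). In normal-diet library 2, Abca2 was at 4.67 RPKM (nearest other 7.88) and Abcc2 at 56.6 RPKM (nearest other 68.3). At a rate of about 1 in 20, many of the 11 flags can be chance, and whether their number exceeds it was not tested. The 170 groups also share libraries.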

How the results depend on the processing

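Among recomputed values of single members, 1171 kept their direction and their side of the threshold, 94 lost a call, 17 gained one and 9 changed sign. Leaving out 1 library gave 10 to 13 members called with diet (14 with all), 16 to 20 in tumours of exercised mice (20) and 12 to 21 in tumours of non-exercised mice (18), and 0 in the exercise and interaction comparisons. Over all genes it gave 2713 to 3616 calls with diet, 3731 to 5536 in exercised and 3753 to 5938 in non-exercised tumours, 0 to 72 for exercise in non-tumour liver, 0 to 41 for exercise in tumours and 0 for the interaction. With no filter on low counts 9 members were called with diet, while 1500 of all 29517 genes then tested rose and 1323 fell. Exercise in non-tumour liver (2 genes) gave 117 genes with DESeq2, 1 with no filter or with the mouse number as a block, and 0 with the compared groups alone; exercise in tumours (3 genes) gave 79 with DESeq2, 1 with RLE or upper-quartile scaling, a filter of 1 CPM or the mouse number as a block, and 0 with the compared groups alone. The cause was not tested. Beside calls lost as libraries were left out, calls were lost with no filter on low counts by Abca2, Abcb8, Abcb10 and Abce1 (diet), Abca9 (exercised tumours) and Abca5, Abca8a and Abcf2 (non-exercised tumours), with the compared groups alone by Abca2 (diet), Abca9 and Abcc6 (exercised) and Abca5 and Abcb9 (non-exercised), with upper-quartile scaling by Abca2, Abcb10 and Abce1 (diet), and with a filter of 1 CPM by Abca2, at adjusted p 0.0516 to 0.110; Abcg1 in exercised tumours passed with the compared groups alone (0.35, adjusted p = 0.0313). Values near 0 changed sign as libraries were left out in turn: Abcg1 in non-exercised tumours ran from -0.222 (without tumour 3) to 0.242, Abcg5 from -0.115 to 0.145 in exercised and from -0.189 to 0.0515 in non-exercised tumours, and Abcg8 from -0.246 to 0.0882 in exercised and from -0.236 to 0.0408 in non-exercised tumours. Abcg5 was also 0.00906 with the mouse as a block in exercised mice. With the mouse as a block, 10 members rose and 11 fell in tumours of exercised mice, beside 2592 and 2133 of 14333 genes. In those of non-exercised mice 7 members rose and 12 fell, beside 2503 and 2608 genes. Beyond Abca5, Abcc2, Abcc9 and Abca8a, given above, this block changed no other member's call. With the mouse number as a block, which joins different mice, 9 members rose and 4 fell with diet, Abca2 being lost (adjusted p = 0.072). Of all 14428 genes, 2071 rose and 1808 fell under that setting. Members under 1 RPKM rest on few counts, which limits what could be seen for them.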
